A study of Mus musculus with 4 samples.

Results

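The glycolysis and glycogen genes were examined in nascent RNA of mouse muscle cells, 34 genes that were chosen by name for their part in glucose and lactate transport, glycolysis or glycogen metabolism. All 34 were found in the read-count table with a count in at least 1 library, in 35 of its 23333 rows, because Aldoa is entered under a pair of Ensembl identifiers with identical counts. Of the 34 genes, 33 were abundant enough to test, out of 13285 tested genes in all, and Aldoc was not. The cells were C2C12 myotubes, the fused, multinucleated fibres that this mouse myoblast line forms in culture, and the labels give the line as female. All cultures had been deprived of steroids. One group of 2 libraries received vehicle and the other group of 2 received 1 µM dexamethasone, a synthetic glucocorticoid, in both cases for 2 h. RNA was taken from the chromatin pellet of isolated nuclei, so the counts follow transcripts that are being made or have not left their template. A library is named here by its group and the replicate number in its title, and values are always given in the order number 1, number 2. The labels do not say whether the libraries came from separate cultures or what a number shares, so p-values measure only the spread between these samples.

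Glycolysis splits glucose into pyruvate and yields ATP, and muscle also stores glucose as glycogen, which it breaks down when it contracts. Most steps are catalysed by families of isoenzymes, of which muscle fibres switch on their own forms as they mature, such as enolase 3, phosphoglycerate mutase 2, the M subunit of phosphofructokinase, the transporter GLUT4 and muscle glycogen phosphorylase. Glucocorticoids are known to oppose the effect of insulin on glucose uptake in skeletal muscle.

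Vehicle 1 held 19631435 counts and vehicle 2 35116830, while dexamethasone 1 held 32463331 and dexamethasone 2 88596296. Levels are given in CPM, the depth-scaled count, with TMM scaling between libraries. Fkbp5, a co-chaperone of steroid receptors that glucocorticoids induce, had 21.4 and 21.6 CPM with vehicle and 1018 and 696 CPM with dexamethasone. All 10 myotube markers examined had counts, and without titin (Ttn) they summed to 5968 and 2223 CPM with vehicle and to 6330 and 2297 CPM with dexamethasone. Each of the 10 had counts in every library, and 8 were higher in both libraries numbered 1 than in both numbered 2, while Tnnt1 and Mymk were not. Markers of undifferentiated or cycling myoblasts (7 of 7 with counts) summed to 60.3 and 65.1 CPM with vehicle and to 46.0 and 53.9 CPM with dexamethasone. Fibroblast markers (3 of 4 with counts, Thy1 listed at 0) summed to 35.7 and 56.6 CPM with vehicle and to 32.98 and 31.96 CPM with dexamethasone, and adipocyte markers (4 of 5 with counts, Cidec at 0) to at most 0.211 CPM. The myoblast and fibroblast sums were lower in both dexamethasone libraries than in either vehicle library, and neither difference held without the leading gene. Without Pax7 the myoblast sum was 28.3 and 26.1 CPM with vehicle and 28.05 and 31.0 CPM with dexamethasone. Without Col1a1 the fibroblast sum was 11.4 and 9.17 CPM with vehicle and 13.1 and 15.2 CPM with dexamethasone. Within it, Dcn was lower with dexamethasone (5.26 and 4.87 CPM with vehicle, 3.97 and 3.17 CPM with dexamethasone). Pdgfra was higher (6.11 and 4.29 CPM with vehicle, 9.14 and 12.04 CPM with dexamethasone). The part of these cells in the results on treatment was not tested. In bulk RNA, fewer cells of a type and less RNA per cell cannot be told apart.

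No member differed between dexamethasone and vehicle at the threshold used, an adjusted p under 0.05 over all 13285 genes in edgeR's quasi-likelihood test, where 0.0376% of all genes passed. Neither DESeq2's Wald test nor limma-voom, also fitted on group alone, called a member. At an unadjusted p under 0.05, each of these 3 tools had 1 member higher and 0 lower, against 5.78% of all genes in either direction in edgeR. The highest log2 fold change was that of Pfkfb3, at 0.79, and the lowest that of Pkm, at -0.34. The median over the 33 members was -0.069, and over all genes tested it was -0.0016. Above 0 were 13 members (39.4%; 49.7% of all genes) and below 0 were 20 (60.6%; 50.3% of all genes). The members' median was not fixed in sign: it was 0.0034 without vehicle 1 and 0.039 without dexamethasone 2. Leaving out 1 library also turned the sign of the fold change in 5 of the 13 members with a printed value, Slc2a4, Aldoa, Gapdh, Pgk1 and Pgam2. The dexamethasone values were all above the vehicle values in 4 members (12.1%; 15% of all genes) and all below them in 2 (6.06%; 12.9% of all genes), which is no more than the share over all genes. The interval of the fold change, at 95% from the edgeR fit, lay within 0.5 to 2 in 17 of the 33 members (51.5%; 63% of all genes). A 2-fold change in the other 16 was therefore not excluded by this fit on group alone. It leaves the replicate number out, so a difference between numbers counts as spread within a group. For Tpi1, dexamethasone differed from vehicle by 0.10 and -0.09 (log2) within the numbers, yet the interval reached down to 0.138-fold. In Ldhb the numbers disagreed, at -0.54 and 0.40, with an interval of 0.473-fold to 1.90-fold. The share of the replicate number in each interval was not tested.

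**Figure D1:**
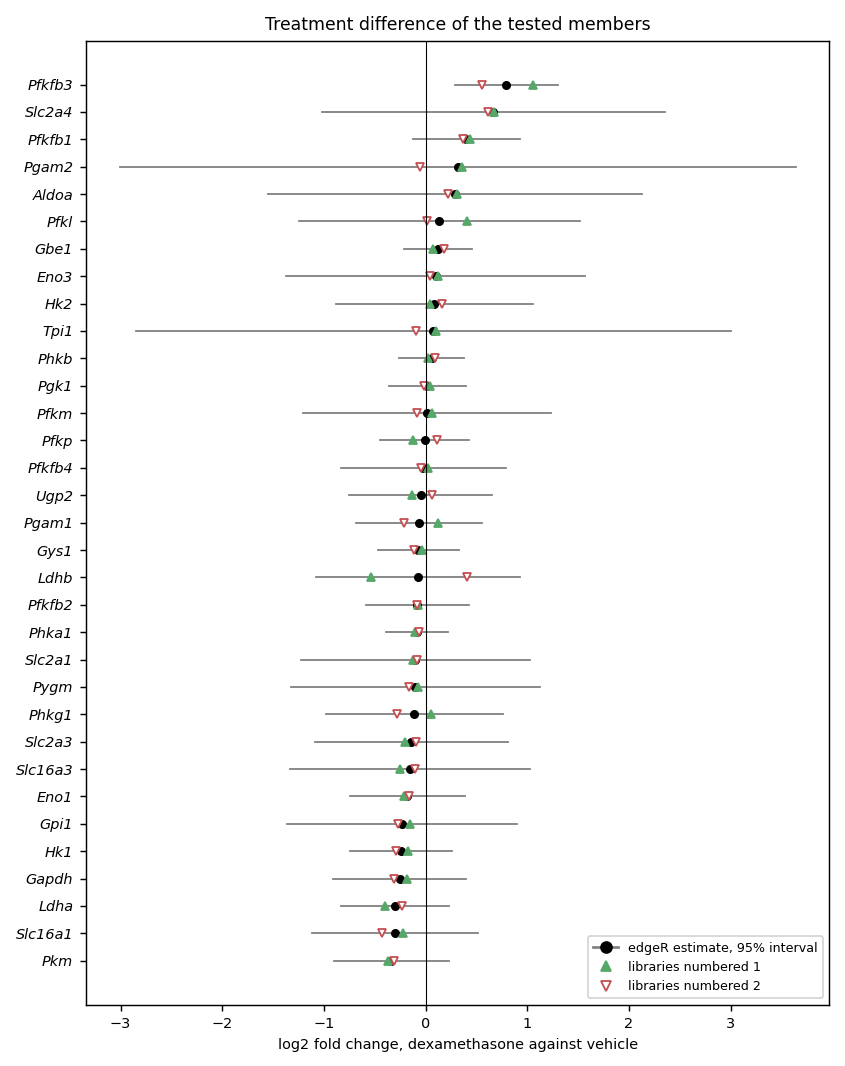
Log2 fold change of dexamethasone against vehicle for the 33 tested members, ordered by size. Black points with grey lines are edgeR estimates with 95% intervals, upward triangles compare the libraries numbered 1 and downward triangles those numbered 2. Pfkfb3 is the member whose interval lies wholly above 0, and Pgam2 and Tpi1 have the widest intervals.

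Pfkfb3 had the highest log2 fold change of the 33 tested members. An absolute value of at least 0.5 was reached by 2 of them (6.06%, against 12.4% of all genes). The PFKFB enzymes make and remove fructose 2,6-bisphosphate, the main activator of phosphofructokinase, and Pfkfb3 is the inducible form in which the kinase side dominates. Pfkfb3 (ENSMUSG00000026773) rested on 194 and 494 counts with vehicle and on 647 and 1782 with dexamethasone, and it had 10.4 and 13.01 CPM with vehicle and 21.6 and 19.1 CPM with dexamethasone. The groups did not overlap, at 11.7 ± 1.85 against 20.3 ± 1.77 CPM (SD, n = 2 each), a difference larger than the SD of either group. Its log2 fold change was 0.79 (SE 0.19), or 1.73-fold with a 95% interval of 1.22 to 2.46. The edgeR unadjusted p was 0.011 and the adjusted p over all genes was 0.418, so it did not pass. Dexamethasone exceeded vehicle by 1.05 on the log2 scale in the libraries numbered 1 and by 0.55 in those numbered 2.

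The 3 other PFKFB genes gave different values. Pfkfb1, known from liver and muscle, had 5.31 and 6.06 CPM with vehicle and 7.20 and 7.82 CPM with dexamethasone. Its groups did not overlap either, and its log2 fold change of 0.40 (SE 0.20) had an edgeR adjusted p of 1.000 and an interval of 0.917-fold to 1.90-fold. Pfkfb1 overlaps Apex2 on the opposite strand, and whether the counting used strand is not stated. Pfkfb2, the form known from heart, had 47.4 and 59.4 CPM with vehicle and 44.9 and 56.0 CPM with dexamethasone, and Pfkfb4 had 17.5 and 27.0 CPM with vehicle and 17.8 and 26.1 CPM with dexamethasone. In both of these genes the groups overlapped, and each library numbered 2 was above the library numbered 1 of its group.

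RefSeq sequences of the 300 bases around the start of transcription (250 before, 50 after, GRCm38.p6) were available for 32 of the 34 members, in 50 entries. They were searched on both strands for AGAACA, the short motif of the glucocorticoid receptor, and for CAGCTG, an E-box bound by myogenic factors (a palindrome, so both strands are the same). Of all 32851 entries of the table, 19% held AGAACA and 16.3% held CAGCTG. Among the 50 member entries 11 held the first (22%) and 12 the second (24%). Both Pfkfb3 entries are shown because this gene had the widest separation of the treatment groups among the tested members. The others are the members with an entry that were at least 2-fold higher in number 1 than in number 2 in both groups, a set chosen after their values were seen, and for Aldoa the one of its 3 entries that holds CAGCTG. Capitals mark CAGCTG and AGAACA, the latter also as its reverse complement TGTTCT.
Pfkfb3 (chr2:11553880-11554179, minus strand): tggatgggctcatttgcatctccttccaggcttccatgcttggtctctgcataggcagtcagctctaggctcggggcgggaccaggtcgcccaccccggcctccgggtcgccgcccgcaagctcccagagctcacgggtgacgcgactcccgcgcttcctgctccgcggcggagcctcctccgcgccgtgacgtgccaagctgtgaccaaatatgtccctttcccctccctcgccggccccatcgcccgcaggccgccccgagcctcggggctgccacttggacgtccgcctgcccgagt
Pfkfb3 (chr2:11502041-11502340, minus strand): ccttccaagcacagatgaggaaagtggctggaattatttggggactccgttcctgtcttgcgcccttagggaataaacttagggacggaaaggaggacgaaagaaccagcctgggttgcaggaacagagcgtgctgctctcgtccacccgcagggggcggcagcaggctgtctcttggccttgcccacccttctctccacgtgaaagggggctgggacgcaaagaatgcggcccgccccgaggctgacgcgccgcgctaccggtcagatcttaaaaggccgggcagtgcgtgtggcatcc
Aldoa (chr7:126799129-126799428, minus strand): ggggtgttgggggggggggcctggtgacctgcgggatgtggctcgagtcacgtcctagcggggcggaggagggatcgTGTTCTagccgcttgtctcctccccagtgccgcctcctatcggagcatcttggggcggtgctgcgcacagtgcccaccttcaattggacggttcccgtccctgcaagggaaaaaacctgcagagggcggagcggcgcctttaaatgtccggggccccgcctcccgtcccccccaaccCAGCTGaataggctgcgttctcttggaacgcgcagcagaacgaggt
Tpi1 (chr6:124814109-124814408, minus strand): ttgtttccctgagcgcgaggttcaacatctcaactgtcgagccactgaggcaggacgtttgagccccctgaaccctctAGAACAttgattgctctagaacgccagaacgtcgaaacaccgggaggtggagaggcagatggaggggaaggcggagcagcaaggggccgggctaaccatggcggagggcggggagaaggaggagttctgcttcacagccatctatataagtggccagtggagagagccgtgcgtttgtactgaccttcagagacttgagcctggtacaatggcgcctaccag
Pgam2 (chr11:5803747-5804046, minus strand): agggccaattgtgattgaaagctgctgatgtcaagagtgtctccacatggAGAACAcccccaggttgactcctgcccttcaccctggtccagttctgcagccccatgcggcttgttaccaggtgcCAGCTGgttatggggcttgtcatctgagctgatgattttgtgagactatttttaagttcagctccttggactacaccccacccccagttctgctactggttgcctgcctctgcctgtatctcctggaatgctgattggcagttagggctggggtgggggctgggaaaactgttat
Eno3 (chr11:70656926-70657225, plus strand): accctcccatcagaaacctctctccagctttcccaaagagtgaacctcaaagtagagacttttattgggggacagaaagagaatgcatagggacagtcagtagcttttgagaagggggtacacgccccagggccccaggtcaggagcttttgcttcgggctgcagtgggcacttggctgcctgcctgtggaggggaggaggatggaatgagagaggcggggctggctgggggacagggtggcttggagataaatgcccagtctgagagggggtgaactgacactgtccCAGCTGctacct
Neither Pfkfb3 window held one of these hexamers, Pgam2 and Aldoa held both, Eno3 held CAGCTG and Tpi1 held AGAACA. For Pgam2 and Eno3 the bases just after the RefSeq start were not found in the gene's GENCODE M21 transcripts, so the start of these windows is uncertain. A match or its absence describes only these letters in these windows, and the authors' counts refer to another build (mm9), so the windows were joined to the values by gene symbol alone.

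Glucose enters muscle through GLUT1, GLUT3 and GLUT4, encoded by Slc2a1, Slc2a3 and Slc2a4. Slc2a4, the insulin-responsive transporter (53 to 200 counts), had 3.27 and 1.40 CPM with vehicle and 5.20 and 2.14 CPM with dexamethasone. Within each number the dexamethasone library was above the vehicle library, by 0.67 and 0.62 on the log2 scale, but the groups overlapped, as vehicle 1 was above dexamethasone 2. The edgeR log2 fold change was 0.66 (SE 0.64, adjusted p 1.000), with an interval of 0.492-fold to 5.10-fold. Slc2a1, the basal transporter, had 17.5 and 31.6 CPM with vehicle and 16.0 and 29.7 CPM with dexamethasone, the reverse order by number. Slc2a3 was near the lower limit, with 15 to 76 counts, and had 0.804 and 0.869 CPM with vehicle and 0.700 and 0.814 CPM with dexamethasone. Its groups overlapped.

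Hexokinase then traps glucose as its phosphate. Hk2, the form that insulin regulates in muscle, had 83.2 and 47.7 CPM with vehicle and 85.4 and 53.3 CPM with dexamethasone. Hk1, the widely expressed form, had 41.0 and 52.6 CPM with vehicle and 36.4 and 42.8 CPM with dexamethasone. The groups overlapped in both genes, with Hk2 higher in number 1 and Hk1 higher in number 2. The next enzyme, glucose-6-phosphate isomerase, is encoded by Gpi1, which had 61.2 and 118 CPM with vehicle and 54.9 and 97.4 CPM with dexamethasone.

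Phosphofructokinase, the main control point of glycolysis, has 3 subunit genes. Pfkm, the muscle form, had 182 and 98.4 CPM with vehicle and 189.9 and 92.8 CPM with dexamethasone. Pfkl, the liver form, had 8.37 and 20.2 CPM with vehicle and 11.1 and 20.3 CPM with dexamethasone, and Pfkp, the platelet form, had 63.6 and 50.3 CPM with vehicle and 58.5 and 54.5 CPM with dexamethasone. Pfkm thus had similar values in both groups, though the interval of its fold change ran from 0.433-fold to 2.35-fold. It differed by number, in the direction opposite to Pfkl. Pfkm and Pfkp each overlap a gene on the other strand (Senp1 and Pitrm1), as do Hk1 (Hk1os), Pfkfb2 (Yod1), Aldoa (Fam57b) and Gys1 (Ruvbl2), and their levels are uncertain to that degree.

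Aldolase and triosephosphate isomerase handle the 3-carbon products. Aldoa, the muscle aldolase, had 77.9 and 28.7 CPM with vehicle and 96.7 and 33.5 CPM with dexamethasone, with a log2 fold change of 0.29 (SE 0.69, edgeR adjusted p 1.000). Its value was higher with dexamethasone within each number (0.31 and 0.22), yet the difference between numbers was larger. Aldoc, the brain form, had 25 and 6 counts with vehicle and 2 and 3 with dexamethasone, too few to test, and most of its vehicle counts came from 1 library. Tpi1 had 39.7 and 7.72 CPM with vehicle and 42.6 and 7.24 CPM with dexamethasone. Both of its number 1 libraries were several times above both number 2 libraries, whatever the treatment. Spsb2, which overlaps Tpi1 on the other strand, had 6.27 and 5.56 CPM with vehicle and 6.90 and 5.15 CPM with dexamethasone. Whether this overlap has a part in the Tpi1 values was not tested.

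The lower steps turn these products into pyruvate and yield the ATP. Gapdh had 19.3 and 27.2 CPM with vehicle and 17.0 and 22.0 CPM with dexamethasone, a log2 fold change of -0.26 (SE 0.25) with an interval of 0.531-fold to 1.32-fold. Gapdh is often used as a constant reference, and here its groups overlapped. It overlaps Iffo1 on the other strand, which had 165 and 245 CPM with vehicle and 153 and 218 CPM with dexamethasone. The part of this overlap in the Gapdh values was not tested. Genes of these steps, Gapdh among them, are also known to have many processed pseudogenes, so reads could be shared with copies. Pgk1, phosphoglycerate kinase, was the steadiest member of these steps, with 19.8 and 19.5 CPM with vehicle and 20.5 and 19.3 CPM with dexamethasone. Its log2 fold change was 0.015 (SE 0.14), or -0.012 with upper quartile scaling, and the interval ran from 0.777-fold to 1.32-fold.

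Phosphoglycerate mutase and enolase each have a muscle form and a widely expressed form. Pgam2, the muscle mutase, had 16.7 and 2.74 CPM with vehicle and 21.5 and 2.63 CPM with dexamethasone, a difference of several-fold between numbers. Its log2 fold change was 0.31 (SE 1.26, the highest of the 33 tested members), and the interval ran from 0.124-fold to 12.4-fold. Pgam1 had 10.2 and 14.5 CPM with vehicle and 11.2 and 12.5 CPM with dexamethasone, with number 2 above number 1 in each group. Eno3, the muscle enolase, had 228 and 104 CPM with vehicle and 249 and 107 CPM with dexamethasone, and Eno1 had 80.7 and 104 CPM with vehicle and 69.8 and 92.8 CPM with dexamethasone.

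Pyruvate kinase closes the pathway, and lactate dehydrogenase and the monocarboxylate transporters dispose of its product. Pkm had 189 and 241 CPM with vehicle and 146 and 194 CPM with dexamethasone, with a log2 fold change of -0.34 (SE 0.21, edgeR adjusted p 1.000) and an interval of 0.535-fold to 1.17-fold. The dexamethasone library was below the vehicle library within both numbers (-0.37 and -0.31), although the groups overlapped. Ldha had 15.4 and 17.6 CPM with vehicle and 11.7 and 15.01 CPM with dexamethasone, and vehicle was above dexamethasone in every pairing of libraries. Its log2 fold change was -0.30 (SE 0.20, edgeR adjusted p 1.000). Slc16a1, the lactate transporter MCT1, had 28.6 and 20.5 CPM with vehicle and 24.5 and 15.3 CPM with dexamethasone, a log2 fold change of -0.31 (SE 0.31). For Pkm, Ldha and Slc16a1 the intervals of the fold change included 1, and a difference was not shown in that fit. Ldhb, the heart form of the dehydrogenase (37 to 153 counts), had 1.98 and 1.24 CPM with vehicle and 1.37 and 1.64 CPM with dexamethasone. Slc16a3, which encodes the lactate exporter MCT4 (34 to 259 counts), had 1.82 and 2.98 CPM with vehicle and 1.53 and 2.77 CPM with dexamethasone. Both had few reads and overlapping groups.

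**Figure D2:**
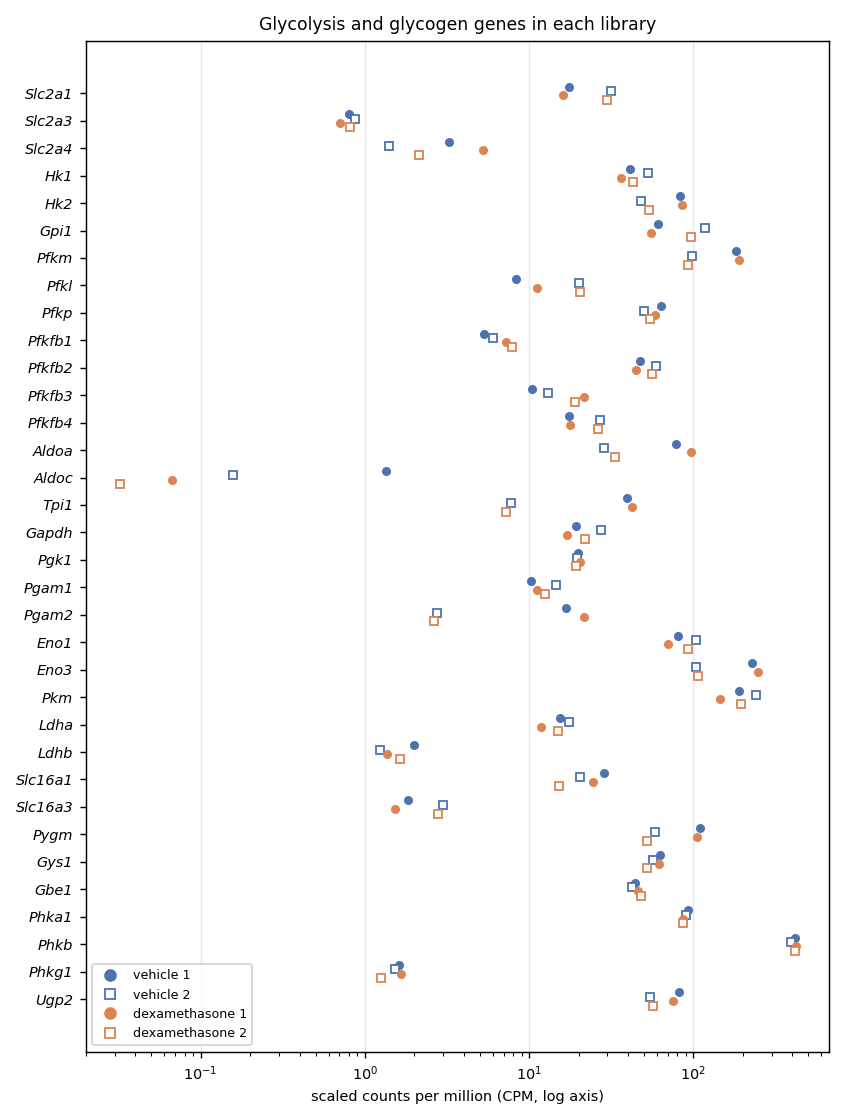
Level of each of the 34 members in each library, in CPM on a log axis. Circles are libraries numbered 1 and squares those numbered 2, blue for vehicle and orange for dexamethasone. Circles and squares separate in Pgam2, Tpi1, Aldoa and Eno3, among others. Colours separate in Pfkfb3, and by less in Pfkfb1, Gbe1, Phkb, Ldha and Phka1. They also separate in Aldoc, which had too few counts to test.

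Glycogen is built by UDP-glucose pyrophosphorylase, glycogen synthase and the branching enzyme, and is broken down by glycogen phosphorylase under the control of phosphorylase kinase. Ugp2 had 82.3 and 54.2 CPM with vehicle and 75.0 and 56.6 CPM with dexamethasone, and Gys1, the muscle synthase, had 62.9 and 56.7 CPM with vehicle and 61.4 and 52.2 CPM with dexamethasone. Gbe1, the branching enzyme, had 44.1 and 42.5 CPM with vehicle and 46.2 and 48.2 CPM with dexamethasone. Its groups did not overlap, yet the log2 fold change was 0.12 (SE 0.13), with an interval of 0.865-fold to 1.37-fold. Pygm, muscle phosphorylase, had 110.0 and 58.1 CPM with vehicle and 105 and 52.0 CPM with dexamethasone and was higher in both libraries numbered 1.

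Of the phosphorylase kinase subunits, Phka1 and Phkb had the lowest standard errors of the tested members. Phkb, the beta subunit, had 414 and 392 CPM with vehicle and 419 and 418 CPM with dexamethasone, a log2 fold change of 0.057 (SE 0.12) with an interval of 0.831-fold to 1.30-fold. Phka1, the muscle alpha subunit, had 92.8 and 90.5 CPM with vehicle and 86.4 and 86.5 CPM with dexamethasone, a log2 fold change of -0.084 (SE 0.11) with an interval of 0.765-fold to 1.16-fold. Both intervals included 1 and excluded a change of 1.5-fold in either direction. This did not extend to Phkg1, whose interval ran from 0.506-fold to 1.69-fold. Phkg1, the muscle gamma subunit, had 1.61 and 1.53 CPM with vehicle and 1.67 and 1.25 CPM with dexamethasone from 30 to 117 counts, and it overlaps Sumf2, Zbed5 and Chchd2, so its level is uncertain.

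A further list of 62 pathway genes held other isoenzymes, glycogen regulators, the pentose phosphate pathway and the shuttles, and 61 of them were in the table. Of the 42 that could be tested, 0 passed after adjustment in edgeR or limma-voom. In DESeq2, which called 289 genes in all, 1 passed, Phka2. At an unadjusted p under 0.05 in edgeR, 2 were higher (4.76%) and 1 lower (2.38%), against 4.09% and 1.69% of all genes. DESeq2 and limma-voom, run on the same counts, also had 2 higher and 1 lower. Their median log2 fold change was -0.0062. The dexamethasone libraries exceeded those of vehicle without overlap in 5 (11.9%) and lay below in 8 (19%), against the 15% and 12.9% given above for all genes.

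Phka2, the alpha subunit known from liver, had the largest value of that list. From 3042 and 6549 counts with vehicle and 10705 and 30159 with dexamethasone, it had 163 and 173 CPM with vehicle and 357 and 323 CPM with dexamethasone. The groups were far apart, at 168 ± 6.65 against 340 ± 24.1 CPM (SD, n = 2 each). Its log2 fold change was 1.02 (SE 0.13), or 2.03-fold with an interval of 1.60 to 2.57. The edgeR adjusted p was 0.136, so the difference did not pass the threshold, while DESeq2's Wald test gave an adjusted p of 4.0e-05. That interval does not overlap the one of Phka1, though the difference between the 2 subunits was not tested.

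Emb, a partner of the lactate transporters, had 5.95 and 5.40 CPM with vehicle and 8.004 and 7.07 CPM with dexamethasone, a log2 fold change of 0.41 (SE 0.20). Eno2, the neuronal enolase, had 12.55 and 17.0 CPM with vehicle and 10.6 and 12.52 CPM with dexamethasone, a log2 fold change of -0.36 (SE 0.23). Neither passed in edgeR, and in both the groups did not overlap. Got1, Gpd1l, Pgk2, Ppp1r3c and Ppp1r3f were listed at 0 in every library, which is not read here as silence.

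**Figure D3:**
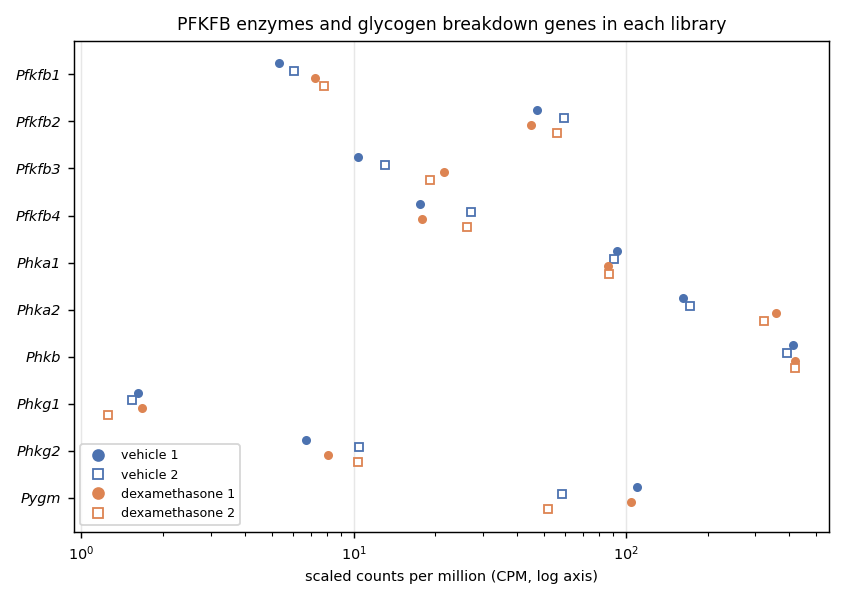
Level of the PFKFB genes and of genes for glycogen breakdown in each library, in CPM on a log axis, with circles for number 1, squares for number 2, blue for vehicle and orange for dexamethasone. Colours separate widely in Pfkfb3 and Phka2, while in Phka1 and Phkb the 4 libraries nearly coincide.

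The members differed more between replicate numbers than between treatments. The median absolute log2 difference between number 1 and number 2 was 0.50 within vehicle and 0.41 within dexamethasone, where all genes tested had 0.31 and 0.27. Between treatments the median was 0.13 in number 1 and 0.16 in number 2, and over all genes 0.17 and 0.15. Both libraries numbered 1 lay above both numbered 2 in 14 of 33 members (42.4%; 31.8% of all genes) and below in 12 (36.4%; 32.1% of all genes). Members at least 2-fold higher in number 1 in both groups were Slc2a4, Aldoa, Tpi1, Pgam2 and Eno3, 5 of 33 (15.2%), against 3.39% of all genes. In the opposite direction the same limit was reached by 0 members and by 1.48% of all genes. Across the 33 genes, which share the same 4 libraries and are not independent replicates, the difference in vehicle followed the difference in dexamethasone (Pearson's r 0.962, Spearman's rho 0.921). Of the 10 myotube markers, 8 moved with this split, among them Ttn, which had 118080 and 41054 CPM with vehicle and 113310 and 39928 CPM with dexamethasone. Their part in the pattern was not tested, and with 1 library per group and number the split was described without a test.

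**Figure D4:**
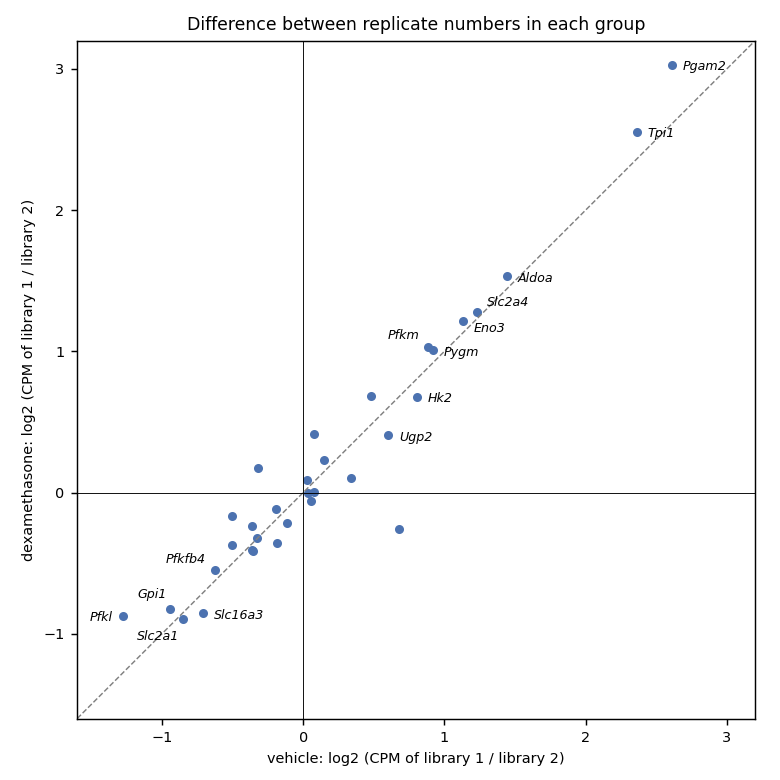
Log2 ratio of library 1 to library 2 within vehicle (horizontal axis) and within dexamethasone (vertical axis) for the 33 tested members, with the dashed line where both are equal. Pgam2 and Tpi1 lie farthest up, and Pfkl, Gpi1, Slc2a1 and Slc16a3 lie below 0 on both axes.

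Eno3, Pgam2, Pfkm, Hk2 and Slc2a4, the forms typical of muscle, were higher in the libraries numbered 1, and Eno1, Pgam1, Pfkl, Hk1 and Slc2a1 were higher in those numbered 2. Other isoenzymes did not divide in this way: Pfkp was also higher in number 1, and Ldha and Ldhb overlapped between the numbers. Of the lactate transporters, Slc16a1 was higher in number 1 and Slc16a3 in number 2. Phka1, the muscle alpha subunit, overlapped between the numbers. Levels were divided by summed exon length, so that genes can be compared. Eno3 was then at 8.76 and 3.11 times Eno1 with vehicle and at 11.0 and 3.57 times with dexamethasone. Divided instead by the span of the whole gene, it was at 6.48 and 2.30 times with vehicle and at 8.16 and 2.645 times with dexamethasone. Per exon length Pgam2 was at 3.85 and 0.445 times Pgam1 with vehicle and at 4.54 and 0.496 times with dexamethasone. The muscle mutase thus exceeded the other form in the libraries numbered 1 and was below it in those numbered 2, and the same held when the gene span was used as the length (5.26, 0.606, 6.19 and 0.677 times).

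For phosphofructokinase, Pfkm per exon length was at 43.4 and 9.73 times Pfkl with vehicle and at 34.2 and 9.12 times with dexamethasone. The same ratio per gene span was lower, at 12.6 and 2.83 times with vehicle and at 9.93 and 2.65 times with dexamethasone. Against Pfkp, Pfkm was at 11.5 and 7.84 times per exon length with vehicle and at 13.03 and 6.83 times with dexamethasone. That ratio per gene span was 4.945 and 3.38 with vehicle and 5.62 and 2.95 with dexamethasone. Hk2 per exon length was at 2.90 and 1.30 times Hk1 with vehicle and at 3.36 and 1.78 times with dexamethasone. Here the ratio per gene span was higher, at 4.56 and 2.04 with vehicle and at 5.28 and 2.80 with dexamethasone. Per exon length Slc2a4 stayed below Slc2a1, at 0.189 and 0.0446 times with vehicle and at 0.328 and 0.0726 times with dexamethasone. Per gene span, however, it was at 0.970, 0.229, 1.68 and 0.373 times, above Slc2a1 in dexamethasone 1. In each of these pairs the ratio was higher in both libraries numbered 1 than in both numbered 2. Within each number, the ratios of Eno3 to Eno1, Pgam2 to Pgam1, Hk2 to Hk1 and Slc2a4 to Slc2a1 were higher with dexamethasone than with vehicle, that of Pfkm to Pfkl was lower, and that of Pfkm to Pfkp was higher in number 1 and lower in number 2.

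Among all members, mean levels per exon length over the 4 libraries were highest for Eno3 (99.0 CPM per kb), Phkb (55.4), Pfkm (42.1) and Pkm (38.5). Eno3 led in every library, while the order of the others turned by library: Pkm exceeded Pfkm in both libraries numbered 2, and Pfkm exceeded Phkb in dexamethasone 1. Per length of the whole gene Eno3 again led, at 32.4 CPM per kb, whereas Phkb, whose gene spans 220.4 kb, was at 1.86. It is not stated whether introns were counted, so both lengths are given. Slc2a3 was the lowest tested member on both scales (0.11 CPM per exon kb and 0.011 CPM per kb of gene).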

How the data were processed

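The authors' deposited table holds raw read counts per gene for 4 libraries. Per the submitters' processing notes the tools were TopHat2 2.0.13, SAMtools 1.1, HTSeq 0.6.1 and DESeq2 1.18.1 with the build mm9. Whether the counting covered introns or used strand is not given in the sources used here. The labels' protocols name both a stranded total RNA kit and a stranded mRNA kit.

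Of 23333 rows, 51 repeat a gene with all its counts and were used once. Genes were filtered with filterByExpr (minimum count 10, total 15), scaled by TMM and fitted in R 4.3.3. The test was that of edgeR 4.0.16 (quasi-likelihood, group alone, two-sided) with Benjamini-Hochberg adjustment over 13285 genes (threshold 0.05). Residual degrees of freedom were 2, prior degrees of freedom 2.56 and the common biological coefficient of variation 0.245. Intervals come from the same fit. The test was run on simulated counts, with less spread than here and no difference between replicate numbers. That run therefore does not measure its power or error rate in these data. Lengths and overlaps come from GENCODE M21 (GRCm38), matched by Ensembl identifier.

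Alternatives were other scalings and filters, DESeq2 1.42.0, limma-voom (limma 3.58.1), the replicate number as a block, and leaving out each library. Members and lists were chosen with earlier results of these data known. By the rule for named genes, values in every library are given for members past the threshold, for members without overlap between groups at an absolute log2 fold change of 0.5 or more, and for isoenzyme families. The rule adds up to 3 other pathway genes per direction whose groups do not overlap, where every library of the higher side has 20 or more counts; 1 gene it names is not reported here. Values of further members, and fold changes for members at an absolute log2 fold change of at least 0.25 or an SE of at most 0.15, were added after values were seen. Libraries of a group differed beyond sampling noise (chi-square per degree of freedom 141 for vehicle and 237 for dexamethasone). Libraries of the same number had lower values across treatments, 47.4 for number 1 and 73.6 for number 2. The reported test leaves the number out.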

Additional observations from a re-analysis of the deposited data

How the results depend on the processing

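With 2 libraries per group, the count over all genes called depended on the model: 5 in the reported test, 23 without a filter, 289 by DESeq2's Wald test, 0 by limma-voom (540 higher and 231 lower unadjusted) and 4 to 64 when 1 library was left out (4 without vehicle 1, 33 without vehicle 2, 64 without either dexamethasone library), with the lone library assumed to vary like the other group, an alternative chosen after seeing the data. Members called stayed at 0 in these. The other pathway genes had 1 call, Phka2, by DESeq2. The labels do not say what a replicate number shares, and 2 pairs cannot settle it; across genes the differences between numbers correlated at 0.80. With the number as a block, on 1 residual degree of freedom, 1681 genes were called (12.7% of those tested), among them 4 members: Pfkfb3 (0.76, adjusted p 0.0115) and Aldoa (0.27, 0.0397) higher, Pkm (-0.34, 0.0103) and Slc16a1 (-0.33, 0.0489) lower. The block also called 5 other pathway genes, among them Phka2 and Epm2a higher and Gpd2 and Gsk3b lower, and gave a member median of -0.031. That median ran from -0.083 (without dexamethasone 1) to 0.039 (without dexamethasone 2) and was 0.0034 without vehicle 1. Pgk1 changed sign under upper quartile scaling (-0.012) and under library size only (-0.025). Of the other tested alternatives of the printed fold changes, 135 kept direction and side and 7 became stronger. Leaving out dexamethasone 1 gave Slc2a4 -0.10, Aldoa -0.67, Pgam2 -1.87 and Pgk1 -0.028, and leaving out vehicle 1 gave the first 3 of these 1.37, 1.178 and 2.12. Gapdh was at 0.019 without vehicle 2, and Pfkfb3 ran from 0.64 to 0.97. Causes were not tested.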

Other observations

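Genes beside the main pathway gave further values. Gpd2, the mitochondrial enzyme of the glycerol phosphate shuttle, which passes electrons from cytosolic NADH to the respiratory chain, had 63.7 and 54.8 CPM with vehicle and 40.2 and 39.3 CPM with dexamethasone. Its groups did not overlap, at a log2 fold change of -0.57 (SE 0.14), but its adjusted p in edgeR, 0.438, did not pass. The cytosolic partner Gpd1 had 3.65 and 2.48 CPM with vehicle and 2.43 and 2.17 CPM with dexamethasone, a log2 fold change of -0.40 (SE 0.32). Epm2a, which encodes the glycogen phosphatase laforin, had 15.9 and 15.5 CPM with vehicle and 19.6 and 20.3 CPM with dexamethasone. The pentose phosphate genes G6pdx, Pgls, Pgd, Rpia, Rpe, Tkt and Taldo1 were all tested and none passed in edgeR. Ppp1r3a, the muscle glycogen-targeting subunit of protein phosphatase 1, showed the split by replicate number, with 26.7 and 4.98 CPM with vehicle and 25.4 and 3.53 CPM with dexamethasone.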
